A study of Mus musculus with 42 samples.

Results

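Interleukin-22 fused to an Fc fragment (IL-22-Fc) was compared with a control antibody in skin wounds of diabetic mice 24 h after a single topical dose. The 2 groups were taken from the sample labels, by treatment (IL-22.Fc against Anti-ragweed) and time point (24hr), and hold 9 of the 42 arrays of the series, 5 with IL-22-Fc and 4 with the control. IL-22 is a cytokine of lymphocytes whose receptor, made of IL22RA1 and IL10RB, is carried by epithelial cells such as keratinocytes and signals mainly through STAT3. In keratinocytes it is known for inducing antimicrobial proteins and for holding back terminal differentiation, the program that ends in the cornified envelope of loricrin, filaggrin and late cornified envelope proteins.

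The tested wounds received IL-22-Fc, 50 µg in the labels and the methods and 20 µg in the design text, and the control wounds an anti-ragweed antibody, called control Fc in the methods. Both groups were female db/db mice, which lack the leptin receptor and heal slowly, aged 10 to 12 weeks in the methods, with a 6 mm full-thickness wound. The labels give the strain of all arrays as C57BL/6, whereas the methods name the db/db mice as a BKS.Cg strain. The methods describe a 2-mm circle of skin around the wound for the day 7 arrays, and the design text says only that wound tissue was taken at 24 h. The other arrays served for context: wounds given VEGF or PDGF for 24 h (5 arrays each), wounds after 7 days of repeated dosing (5 IL-22-Fc, 5 VEGF, 3 PDGF and 5 control) and untreated skin at baseline (5), of unstated genotype. The labels give a dose of 20 µg for VEGF and 50 µg for PDGF, and the methods give 50 µg for each. The design text plans 5 arrays in each group, and 4 controls at 24 h were analysed here. Nothing in the labels ties arrays to separate animals, so p-values measure the spread between arrays, which may in part be technical.

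Expression was read as the log2 of the deposited intensity of 20672 probe sets, 1 per gene. A difference of 1 on this scale is a doubling. The 19 arrays at 24 h were fitted together with limma, and genes count as called when they changed at least 1.5-fold and had an adjusted p under 0.05 (Benjamini-Hochberg over all probe sets). The 9 arrays correlated with each other at 0.982 to 0.995, and no array was a copy of another. Of the 7 Y chromosome genes measured in these female mice, which stand for probe sets without a transcript, mean levels lay between 2.54 and 4.87. The skin markers were present: Krt5, the basal keratin, had a mean of 13.43 with IL-22-Fc and 13.47 in the control, and Krt10, the suprabasal keratin, 13.43 and 13.38 (log2 levels).

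A small set of genes separated IL-22-Fc wounds from control wounds after 1 day. The lipoxygenase gene Alox8, the chitinase-like gene Chil1, the pluripotency-associated gene Dppa5a and the atlastin gene Atl1 were at least 4-fold higher, and Serpina12, the gene of the protease inhibitor vaspin, was lower with a ratio of 0.209. In all, 13 genes were called higher (0.0629% of the probe sets tested) and 7 lower (0.0339%). With no limit on the fold, 15 probe sets were higher (0.0726%) and 8 lower (0.0387%). Without adjustment, 690 were higher (3.34%) and 759 lower (3.67%) at a p under 0.05, or 1449 in all (7.01%). Leaving out single arrays gave between 4 (without control array 3) and 27 (without IL-22-Fc array 5) higher genes, and between 3 and 8 lower genes for the same 2 arrays. Among the 13 higher genes, 12 had all 5 IL-22-Fc arrays above all 4 control arrays, a pattern that 0.716% of the probe sets showed. All 7 lower genes had every IL-22-Fc array below every control array, as did 1.01% of the probe sets. These shares describe genes chosen for their difference and are given as background only.

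**Figure D1:**
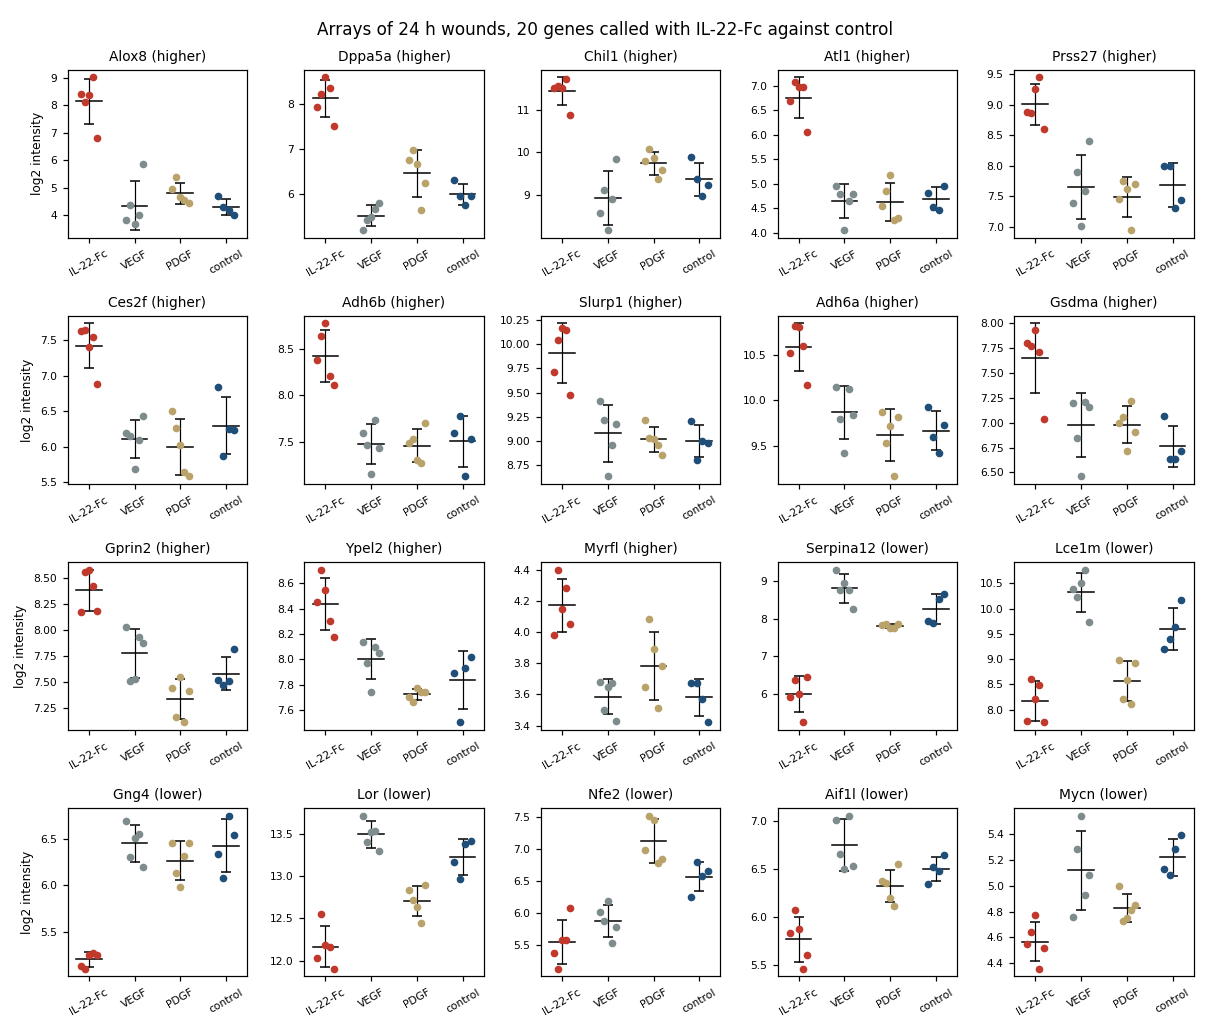
Log2 intensity (vertical axes, different range in each panel) of the 20 called genes in every array of the wounds taken at 24 h, with IL-22-Fc, VEGF, PDGF and control from left to right. Points are arrays, lines the group mean and bars 1 SD (n = 5, 5, 5 and 4). Alox8 lies between 6.80 and 9.02 with IL-22-Fc and between 4.00 and 4.69 in the control, and Gsdma is the called gene whose IL-22-Fc and control arrays overlap.

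The largest increase was that of Alox8, the 8S-lipoxygenase of mouse epidermis, which oxygenates arachidonic and linoleic acid. Its log2 level was 8.40, 8.13, 8.39, 9.02 and 6.80 in the IL-22-Fc arrays and 4.69, 4.31, 4.18 and 4.00 in the control arrays, so the lowest IL-22-Fc array stood above the highest control array. The difference was 3.85 (standard error 0.40, 95% interval 3.02 to 4.68, adjusted p = 5.8e-05 from limma), or 14.4-fold. The control level lay within the range of the Y chromosome probe sets, so it cannot be told apart from background. In the other wounds at 24 h, Alox8 averaged 4.34 with VEGF and 4.79 with PDGF.

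The sequence before the annotated start of Alox8 is shown with that of Serpina12, as the called genes with the largest change in each direction. Each run holds 250 bases before the start and the first transcribed base in capitals, 5′ to 3′ on the gene's own strand, from RefSeq (GRCm38.p6). Alox8 lies on the minus strand at chr11:69197843-69198093 and Serpina12 on the minus strand at chr12:104044443-104044693.
Alox8: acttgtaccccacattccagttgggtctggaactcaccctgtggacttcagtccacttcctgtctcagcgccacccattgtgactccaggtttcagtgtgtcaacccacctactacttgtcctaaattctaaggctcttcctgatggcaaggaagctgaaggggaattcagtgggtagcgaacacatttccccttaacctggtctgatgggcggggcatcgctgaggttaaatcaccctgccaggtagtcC
Serpina12: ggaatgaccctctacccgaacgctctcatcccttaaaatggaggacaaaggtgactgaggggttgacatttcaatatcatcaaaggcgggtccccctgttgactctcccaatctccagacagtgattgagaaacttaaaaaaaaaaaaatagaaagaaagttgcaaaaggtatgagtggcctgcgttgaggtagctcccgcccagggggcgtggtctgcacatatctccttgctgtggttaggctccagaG

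The STAT motif TTCNNNGAA, which reads the same on both strands, was searched from 250 bases before to 50 bases after the start. It was found in 1 of the 8 higher genes with a promoter sequence and in 0 of the 6 lower genes, and in 8.47% of all 27025 promoters. The stricter TTCCNGGAA was in none of these 8 and 6, and in 1.15% of all promoters. The 1 match was in Adh6a, at bases 15 to 23 after the start, and is shown in capitals with its flanks (plus strand, chr3:138313290-138313318, GRCm38.p6).
Adh6a: tcaaagcttaTTCAGAGAAaccacaaagg

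Other enzymes of small-molecule metabolism were also higher. Adh6a and Adh6b encode alcohol dehydrogenases, and Ces2f a carboxylesterase. Adh6a was at 10.52, 10.81, 10.80, 10.60 and 10.17 in the IL-22-Fc arrays and at 9.93, 9.60, 9.42 and 9.73 in the control arrays, a difference of 0.91 (standard error 0.17, adjusted p = 0.031 from limma). Adh6b was at 8.38, 8.64, 8.77, 8.21 and 8.11 with IL-22-Fc and at 7.59, 7.78, 7.13 and 7.53 in the control, a difference of 0.92 (standard error 0.15, adjusted p = 0.011 from limma). In both genes every IL-22-Fc array exceeded every control array. They are paralogs, and the probe sets may share transcripts. Ces2f was at 7.63, 7.64, 7.41, 7.55 and 6.88 with IL-22-Fc and at 6.84, 5.87, 6.25 and 6.23 in the control (difference 1.13, standard error 0.21, adjusted p = 0.035 from limma). Its lowest IL-22-Fc array was only just above its highest control array.

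Secreted and surface-associated proteins formed a further group. Chil1 encodes a chitinase-like glycoprotein that binds chitin without cutting it and is made by macrophages, neutrophils and epithelia. Its level was 11.52, 11.56, 11.50, 11.72 and 10.88 with IL-22-Fc and 9.89, 9.37, 8.97 and 9.25 in the control. It was thus about 1 log2 unit above the highest control array even in the lowest IL-22-Fc array, and the fitted difference was 2.07 (standard error 0.26, adjusted p = 4e-04 from limma), or 4.19-fold. Prss27, a serine protease of squamous epithelia known as marapsin, was at 8.88, 8.87, 9.25, 9.45 and 8.60 with IL-22-Fc and at 8.00, 7.99, 7.31 and 7.44 in the control, 2.5-fold higher (adjusted p = 0.031 from limma). Slurp1 encodes a small secreted Ly6-type protein of keratinocytes, whose loss in humans causes the palmoplantar keratoderma mal de Meleda. It was at 9.71, 10.05, 10.17, 10.15 and 9.47 with IL-22-Fc and at 9.20, 8.80, 9.00 and 8.98 in the control, 1.88-fold higher (adjusted p = 0.016 from limma), with no overlap.

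Dppa5a, which encodes an RNA-binding protein best known from pluripotent cells, was at 7.92, 8.22, 8.59, 8.36 and 7.51 in IL-22-Fc arrays and at 6.30, 5.94, 5.75 and 5.96 in control arrays. The difference was 2.13 (standard error 0.23, adjusted p = 6e-05 from limma), or 4.38-fold. Atl1 encodes atlastin, a GTPase that fuses tubules of the endoplasmic reticulum and is best known from neurons. It was at 6.69, 7.07, 6.98, 6.98 and 6.05 with IL-22-Fc and at 4.81, 4.53, 4.46 and 4.96 in the control, a difference of 2.07 (standard error 0.22, adjusted p = 5.8e-05 from limma). Both genes were separated by more than 1 log2 unit between the groups. The control mean of Atl1, 4.69, lay within the range of the Y chromosome probe sets, so its difference is against a level that cannot be told apart from background.

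Gsdma encodes a pore-forming gasdermin of the upper epidermis. It averaged 7.65 ± 0.35 with IL-22-Fc (SD, n = 5) and 6.76 ± 0.21 in the control (SD, n = 4) and was called at an adjusted p of 0.048 from limma. Its groups overlapped, since the lowest IL-22-Fc array, at 7.04, lay under the highest control array, at 7.07. The remaining higher genes changed less. Gprin2, whose product binds G-protein alpha subunits, ranged from 8.17 to 8.58 with IL-22-Fc and from 7.47 to 7.82 in the control (difference 0.80). Ypel2, of the yippee-like family, ranged from 8.18 to 8.71 and from 7.50 to 8.02 in the same order (difference 0.60). Myrfl, a relative of the myelin regulatory factor, was at 3.98 to 4.40 with IL-22-Fc and 3.42 to 3.67 in the control, and both ranges lay within the levels of the Y chromosome probe sets. Card14, a keratinocyte scaffold of NF-κB signalling that is mutated in familial human psoriasis, passed the adjusted p (0.035 from limma) with a difference of 0.40, below the 1.5-fold limit.

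The lower genes included 2 of the cornified envelope. Lor encodes loricrin, its main protein, and was at 12.03, 12.55, 12.19, 12.16 and 11.91 in IL-22-Fc arrays and at 13.16, 12.96, 13.38 and 13.41 in control arrays. The highest IL-22-Fc array was below the lowest control array, and the ratio was 0.48 (log2 difference -1.06, standard error 0.13, adjusted p = 0.00025 from limma). Lce1m, a late cornified envelope gene, was at 7.78, 8.61, 8.21, 8.49 and 7.75 with IL-22-Fc and at 9.20, 9.39, 9.63 and 10.16 in the control (log2 difference -1.43, standard error 0.24, adjusted p = 0.016 from limma). In bulk tissue, fewer cells of a type and less RNA per cell cannot be told apart. The probe sets of Lor and Lce1m, and those of the lower genes Gng4 and Aif1l, belong to a class that may detect more than 1 transcript.

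Serpina12 encodes vaspin, a serine protease inhibitor of fat and epidermis that acts on the kallikrein KLK7. Its level was 5.91, 6.37, 5.99, 5.24 and 6.46 with IL-22-Fc and 7.93, 7.89, 8.52 and 8.66 in the control. All 5 IL-22-Fc arrays lay more than 1 log2 unit below the control arrays, with a difference of -2.26 (standard error 0.22, adjusted p = 5.8e-05 from limma). Klk7 itself, the desquamation protease, averaged 12.04 and 11.69 (IL-22-Fc and control, adjusted p = 0.65 from limma).

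The other lower genes were Gng4, Nfe2, Aif1l and Mycn. Gng4, a G-protein gamma subunit, was at 5.13, 5.10, 5.25, 5.27 and 5.25 with IL-22-Fc, a spread of only 0.08 (SD, n = 5), and at 6.34, 6.08, 6.75 and 6.54 in the control (difference -1.23, adjusted p = 5.8e-05 from limma). Its IL-22-Fc levels lay not far above the highest mean of the Y chromosome probe sets, 4.87. Nfe2, a transcription factor best known from, but not limited to, the megakaryocyte and erythroid lineages, was at 5.37, 5.13, 5.58, 5.57 and 6.07 with IL-22-Fc and at 6.25, 6.80, 6.57 and 6.65 in the control (difference -1.02, adjusted p = 0.031 from limma). The platelet genes Pf4, Itga2b and Gp9 differed by -0.02, -0.04 and 0.03, and none of the 8 measured erythrocyte and platelet markers was called. Only 0.111% of all probe sets passed the adjusted p, so this count does not set the list apart. Aif1l, an actin-binding protein, and Mycn, the N-Myc transcription factor, differed by -0.73 and -0.65 with no overlap between the groups (adjusted p = 0.032 and 0.044 from limma). The IL-22-Fc mean of Mycn, 4.57, was within the range of the Y chromosome probe sets.

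The response was not equally large in the 5 IL-22-Fc arrays. Relative to the control mean, the median over the 13 higher genes was 1.03, 1.14, 1.17, 1.16 and 0.60 in IL-22-Fc arrays 1 to 5 (the numbers are names only) and lay between -0.13 and 0.26 in the control arrays. Array 5 was the lowest IL-22-Fc array in 11 of the 13 genes. In the 7 lower genes it did not stand apart, with a median of -1.18 against -1.20 to -0.99 in the other 4. Without array 5, 27 genes were higher and 8 lower. All 13 and 5 of the 7 were among them. Among the genes added, picked here after their values were seen, were Thrsp, a regulator of fatty acid synthesis, with a difference of 1.45 without array 5 (adjusted p = 0.036) and 1.20 with it (adjusted p = 0.29), Slc5a8, a monocarboxylate transporter (1.22 and 1.01), Spink5, the inhibitor of epidermal kallikreins (0.72 and 0.58), and Cnfn, the cornifelin of the cornified envelope (0.90 and 0.81), all from limma. The 5′ Gapdh probe set, a sign of RNA integrity, was at 12.16 in array 5, at 12.66 to 12.92 in the other IL-22-Fc arrays and at 12.21 to 13.27 in the control, and its part in the smaller response was not tested. The group means of the 5′ Gapdh and Actb probe sets were 12.67 and 13.34 with IL-22-Fc and 12.57 and 13.36 in the control (2-sided exact permutation p = 0.722 and 0.897; 0.00794 is the smallest p that 5 against 4 arrays allow).

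VEGF and PDGF wounds of the same time point showed which of these genes differed from other topical proteins as well. IL-22-Fc wounds had 26 higher (0.126%) and 63 lower genes (0.305%) than VEGF wounds, and 422 higher (2.04%) and 152 lower genes (0.735%) than PDGF wounds. Of the 13 genes higher than control, 10 were also higher than with VEGF and with PDGF (0.0484% of the probe sets): Alox8, Dppa5a, Chil1, Atl1, Prss27, Ces2f, Adh6b, Slurp1, Adh6a and Gprin2. Of the 7 lower genes, Serpina12 and Gng4 were lower in all 3 comparisons (0.00967%). Serpina12 lay between 5.24 and 6.46 with IL-22-Fc, between 8.25 and 9.30 with VEGF, between 7.75 and 7.85 with PDGF and between 7.89 and 8.66 in the control. Atl1 lay between 6.05 and 7.07 with IL-22-Fc, between 4.05 and 4.95 with VEGF, between 4.25 and 5.17 with PDGF and between 4.46 and 4.96 in the control. These contrasts share the IL-22-Fc arrays and are not independent of each other. In the labels the VEGF dose is lower than that of IL-22-Fc, and the part of dose was not tested.

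Lce1m, Lor and Nfe2 were among the genes outside this set. Lce1m averaged 8.17 with IL-22-Fc and 8.58 with PDGF, a difference of -0.40 that was not called (adjusted p = 0.33 from limma), and against the shared control it differed by -1.43 with IL-22-Fc and -1.03 with PDGF. Lor was below PDGF by 0.54 on average, less than 1.5-fold, and differed from control by -1.06 with IL-22-Fc and -0.52 with PDGF. With PDGF against control, Lce1m and Lor both passed the adjusted p (0.031 and 0.04 from limma), Lor at less than 1.5-fold. Nfe2 averaged 5.54 with IL-22-Fc and 5.88 with VEGF (difference -0.33, adjusted p = 0.74 from limma), while PDGF stood at 7.12. A difference that misses the threshold does not show equal levels.

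At day 7, after repeated doses, the same contrast, in arrays not used at 24 h, gave 309 higher genes (1.49%) and 166 lower genes (0.803%). Of the 13 genes higher at 24 h, 9 were also called higher at day 7, and of the 7 lower genes 5 were also called lower. Alox8 differed from control by 3.85 at 24 h and 6.53 at day 7, Chil1 by 2.07 and 3.88, and Prss27 by 1.32 and 3.22. For these 3 genes the effect was smaller at 24 h by the test of the difference between the times (24 h minus day 7: -2.68, -1.81 and -1.89, adjusted p = 0.0083, 0.04 and 0.016 from limma over 37 arrays). Atl1, Adh6b, Gsdma, Gprin2 and Ypel2 had differences in effect between -0.22 and 0.22 (adjusted p of 0.74 or more from limma). Among the lower genes, Lor and Lce1m were further below control at day 7 (-2.44 and -3.84), and both differences between the times passed (1.39 and 2.41, adjusted p = 5.1e-06 and 2.3e-05 from limma).

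**Figure D2:**
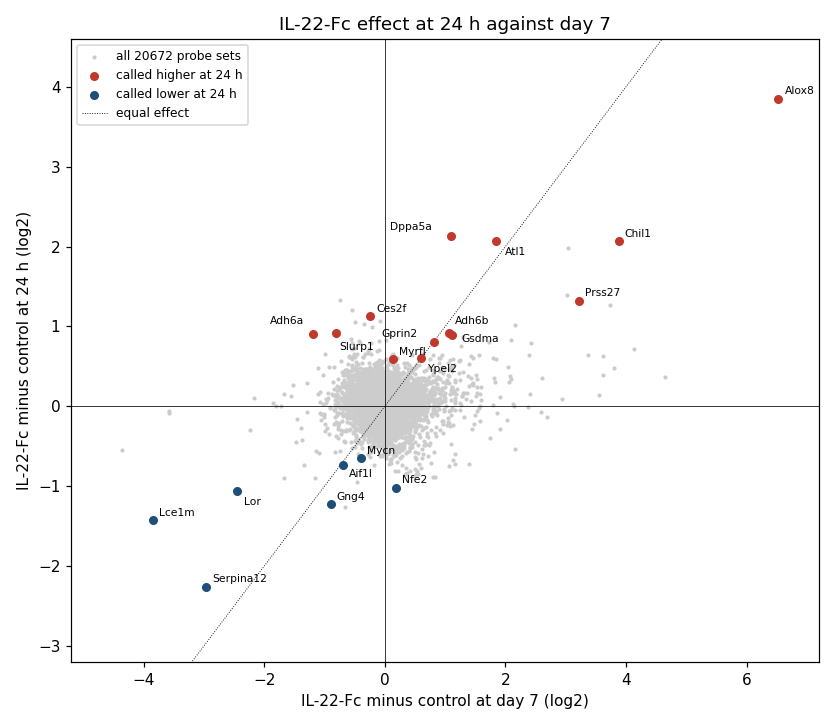
IL-22-Fc minus control in log2 units at day 7 (horizontal axis) and at 24 h (vertical axis) for all 20672 probe sets, with the called genes of 24 h in red (higher) and blue (lower). The dotted line marks equal effects. Slurp1 and Adh6a lie at 0.91 at 24 h and at -0.81 and -1.20 at day 7, and Alox8 at 3.85 and 6.53.

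Slurp1 and Adh6a were higher with IL-22-Fc at 24 h and lower at day 7, with no overlap between the groups at either time. Slurp1 was above control by 0.91 at 24 h and below it by 0.81 at day 7 (adjusted p = 7e-04), with day 7 levels of 8.36, 7.56, 7.99, 7.68 and 7.42 in IL-22-Fc arrays and 8.51, 8.62, 8.53, 8.82 and 8.57 in control arrays. Adh6a differed by 0.91 at 24 h and -1.20 at day 7 (adjusted p = 0.00013), where its levels were 7.44, 8.31, 8.73, 8.19 and 7.96 with IL-22-Fc and 9.32, 9.61, 9.16, 9.57 and 8.97 in the control. Its paralog Adh6b was higher at both times (0.92 and 1.06). The difference between the times was 1.72 for Slurp1, 2.11 for Adh6a and 1.37 for Ces2f (adjusted p = 3.1e-06, 1.8e-06 and 0.0014 from limma). Dppa5a kept its direction with a larger effect at 24 h (2.13 against 1.11, adjusted p of the difference 0.048). Nfe2 differed by -1.02 at 24 h and 0.19 at day 7, where its mean was 4.35 with IL-22-Fc and 4.16 in the control.

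Over all probe sets, the signed difference from control was more positive at 24 h than at day 7 for 166 (0.803%), which includes genes that fell at day 7, and more negative for 130 (0.629%). These counts moved between 67 and 285 and between 89 and 167 when single 24 h arrays were left out. Wide differences included genes called at day 7 and not at 24 h. Mt4, an epithelial metallothionein, differed by -0.55 at 24 h and -4.36 at day 7, and Krt77, a keratin of the suprabasal epidermis and sweat ducts, by -0.08 and -3.59. In the other direction, Defb3, a beta-defensin, differed by 0.37 and 4.64, Lpo, the lactoperoxidase, by 0.14 and 3.55, and Actc1, the cardiac actin, by -0.14 and 2.69. None of these 5 was called at 24 h.

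The genes of the day 7 response were also read at 24 h. Of the 309 genes higher at day 7, 237 (76.7%) had a positive difference at 24 h, against 49.9% of all probe sets, with a median of 0.16 at 24 h and 0.89 at day 7. In this set, 9 genes were called higher at 24 h, where 0.0629% of all probe sets were, and 20 (6.47%) had IL-22-Fc arrays all above the control arrays, against 0.716% of all probe sets. Of the 166 genes lower at day 7, 76 had a negative difference at 24 h and 90 a positive one, and 5 were called lower, against 0.0339% of all probe sets. The median of the lower set was 0.03 at 24 h and -0.75 at day 7. The counts of 237 and 76 ranged from 214 to 250 and from 60 to 94 when each array at 24 h was left out in turn.

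The mediators of antimicrobial defence and inflammation that IL-22 is known for were not called at 24 h. Defb1, beta-defensin 1, was at 9.36 ± 0.37 with IL-22-Fc (SD, n = 5) and 9.19 ± 0.09 in the control (SD, n = 4), and S100a9, a subunit of calprotectin, at 13.52 ± 0.28 and 13.66 ± 0.29. The log2 level of S100a9 was 6.49 in untreated skin, so both wound groups were far above it. Lcn2, the siderophore-binding lipocalin, differed by -0.09 (95% interval -0.50 to 0.32), and the acute-phase genes Saa1, Saa2 and Saa3 by 0.72, 0.33 and -0.12. At day 7 Lcn2 was 1.86 and Saa1 4.14 above control, and both effects were smaller at 24 h (adjusted p = 0.0086 and 0.0081 from limma). The control mean of Lcn2 was 11.80 at 24 h and 9.36 at day 7, and its IL-22-Fc mean 11.71 and 11.22. For Saa1 the control means were 6.93 and 4.44 and the IL-22-Fc means 7.64 and 8.58, in the same order. Over the list of antimicrobial genes, 0 of 22 measured members passed in either direction, with a median of -0.05, against 0.00 over all probe sets. Only 0.111% of all probe sets passed, so a count of 0 in a list of this size says nothing particular about it.

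**Figure D3:**
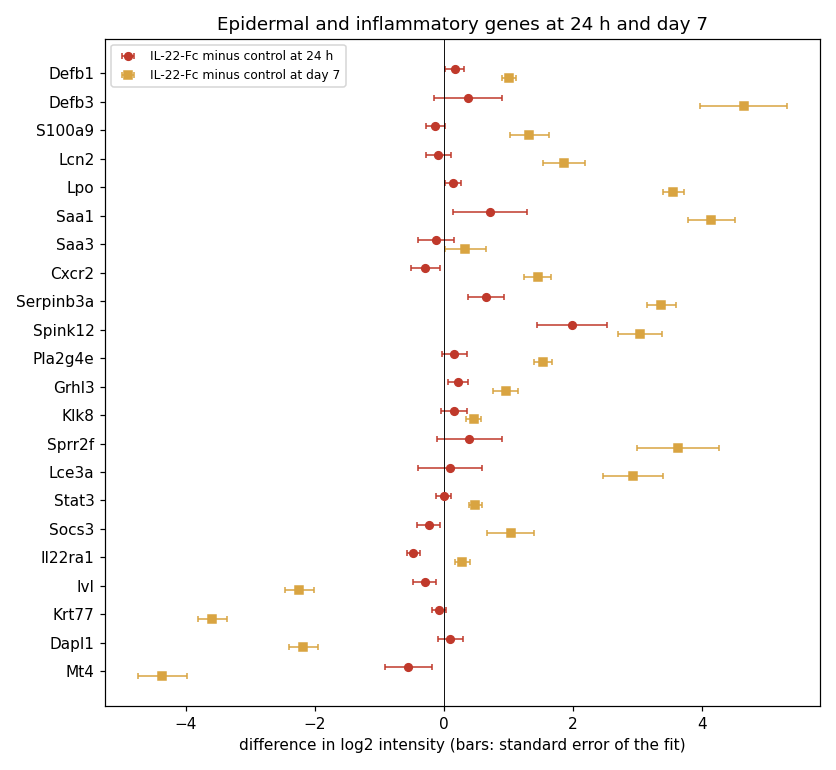
IL-22-Fc minus control in log2 units (horizontal axis) at 24 h (red circles) and at day 7 (yellow squares) for 22 epidermal and inflammatory genes. Bars are the standard error of the fit. At 24 h the values run from -0.55 for Mt4 to 1.98 for Spink12, and none of the 22 genes was called.

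Spink12, a Kazal-type protease inhibitor, was one of the genes the study names at day 7. It was at 8.04, 7.63, 6.57, 5.67 and 5.68 with IL-22-Fc and at 4.66, 4.41, 4.94 and 4.94 in the control. Every IL-22-Fc array was higher, but the IL-22-Fc arrays spread over more than 2 log2 units and the difference of 1.98 (standard error 0.54) had an adjusted p of 0.41 from limma. One PDGF array was also at 8.20. Serpinb3a, a serpin of squamous epithelia, differed by 0.65 at 24 h and 3.37 at day 7, and Pla2g4e, a cytosolic phospholipase, by 0.16 and 1.53. For the last pair the effect was smaller at 24 h (adjusted p = 2.8e-05 and 0.0021 from limma). Grhl3, a transcription factor of epidermal barrier formation, and Klk8, an epidermal kallikrein, differed by 0.22 and 0.16 at 24 h, and their difference between the times did not pass. The probe set of Serpinb3a, and those of Defb1, Saa2 and Socs3, belong to classes that may detect more than 1 transcript.

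The receptor and its signalling genes were measured too. Il22ra1, the chain that confers IL-22 binding on keratinocytes, was at 5.32, 5.10, 5.33, 5.04 and 4.93 in IL-22-Fc arrays and at 5.51, 5.65, 5.60 and 5.70 in control arrays. These IL-22-Fc levels lay not far above the highest mean of the Y chromosome probe sets, 4.87. All IL-22-Fc arrays were lower, but the difference of -0.47 (standard error 0.10) had an adjusted p of 0.13 from limma and was not called. At day 7 it was 0.29, and the effect differed between the times by -0.76 (adjusted p = 0.0082 from limma). Its partner Il10rb differed by -0.20, Il20ra and Il20rb by 0.23 and -0.05, and the soluble decoy receptor Il22ra2 by 0.37. Stat3 was at 10.75 in both groups and Socs3, the feedback inhibitor that STAT3 induces, at 10.72 ± 0.44 with IL-22-Fc (SD, n = 5) and 10.96 ± 0.09 in the control (SD, n = 4). None of the 14 measured JAK-STAT3 pathway genes and none of the 30 STAT3 target genes on the list passed, with medians of -0.02 and -0.07, and at a share of 0.111% over all probe sets these counts do not set the lists apart.

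Gene lists for skin biology showed where the called genes sat. In the list of the cornified envelope and late differentiation, 2 of 48 measured members passed, both lower (Lor and Lce1m), where 0.0387% of all probe sets passed as lower. The median was -0.01 and lay between -0.17 (without IL-22-Fc array 1) and 0.04 when single arrays were left out. Within that list, all 11 measured Lce1 genes were below control, by a median of -0.41 and from -1.43 to -0.10, and 1 was called. The 4 Lce3 genes had a median of 0.06 and the 8 Sprr genes, small proline-rich envelope precursors, of 0.22. At day 7 the medians were -0.67 for Lce1, 1.86 for Lce3 and 1.38 for Sprr. These families were set apart after their values had been seen, and neighbouring Lce and Sprr genes are similar enough to share probes. Cnfn, also picked afterwards, was 0.81 above control with no overlap but missed the threshold (adjusted p = 0.083 from limma), and Flg, the filaggrin gene, differed by -0.90 (adjusted p = 0.74 from limma).

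**Figure D4:**
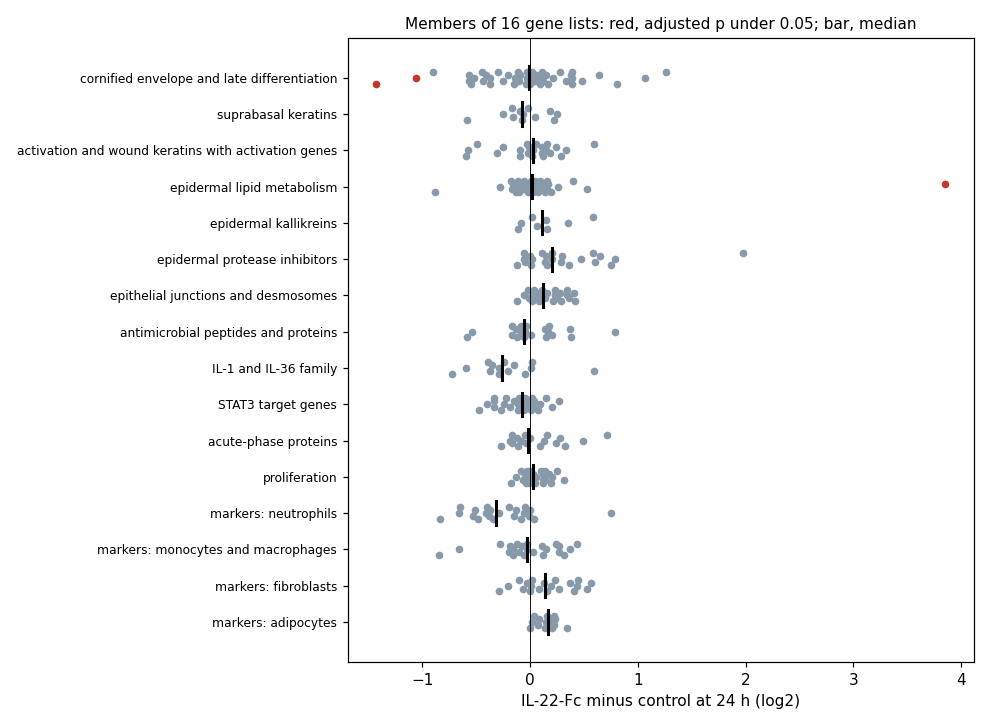
IL-22-Fc minus control at 24 h in log2 units (horizontal axis) for the measured members of 16 gene lists. Each point is a gene, red where its adjusted p was under 0.05, and each vertical bar is the median of the list. The median is -0.32 for neutrophil markers and 0.20 for epidermal protease inhibitors, and Alox8 at 3.85 is the only called gene of the lipid list.

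Among 40 measured genes of epidermal lipid metabolism, Alox8 alone passed, and the median of the list was 0.02. Over all probe sets, 0.111% passed and 49.9% were above control. A count of 0 called in the lists that follow therefore says nothing particular about them. The epidermal protease inhibitors had a median of 0.20, with 18 of 23 measured members above control and none called. Those with the largest values were Spink12 (1.98), the secreted inhibitor Wfdc12 (0.79) and the stefin Stfa3 (0.75). Stfa3 is also on the list of neutrophil markers, whose median was -0.32. The 8 kallikreins had a median of 0.11, and Klk6, a serine protease, differed by 0.58 (adjusted p = 0.41 from limma). Of 26 genes of epithelial junctions and desmosomes, 22 were above control, with a median of 0.12 (0.19 without control array 1) and none called. Keratins of activated epidermis stood close to control: Krt6a, Krt16 and Krt17 differed by -0.09, 0.11 and 0.15. In the EGF family, Btc, betacellulin, picked after its value was seen, was lower without overlap and missed the threshold (difference -0.90, adjusted p = 0.083 from limma).

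The markers of other cells in the wound were given the same reading. Over all probe sets, 49.9% were above control and 0.111% passed the adjusted p, so a count of 0 called says nothing particular about lists of this size. Of 22 measured neutrophil markers, 2 were above control, the median was -0.32 and none was called. Fpr2, a formyl peptide receptor, differed by -0.66 and Trem1, an activating myeloid receptor, by -0.84. The summed intensity of the list was 32262 to 48470 over the IL-22-Fc arrays and 39978 to 56316 over the control arrays. The median of the list was -0.17 without control array 2, and the part of these cells in the called genes was not tested. The monocyte and macrophage list had a median of -0.03, and Arg1, the arginase of wound macrophages, also picked afterwards, was 0.84 lower on average with no overlap (adjusted p = 0.061 from limma). All 16 measured adipocyte markers were above control by a median of 0.17, which was 0.27 without IL-22-Fc array 5, 0.11 without IL-22-Fc array 2 and 0.10 without control array 1. So were 15 of 20 fibroblast markers by a median of 0.14, with none called in either list. The summed adipocyte intensity was 13835 to 19308 with IL-22-Fc and 14593 to 18504 in the control. For basal keratinocyte markers the median was -0.01, with sums of 34432 to 40284 and 35769 to 37724 in the same order.

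Untreated skin placed these levels relative to unwounded tissue. Chil1 averaged 11.44 with IL-22-Fc, 9.37 in control wounds and 5.86 in untreated skin, and Prss27 9.01, 7.68 and 5.64. Serpina12 averaged 5.99 with IL-22-Fc, 8.25 in control wounds and 10.18 in untreated skin, Lor 12.17, 13.23 and 13.77, and Gng4 5.20, 6.43 and 7.67. In these 5 genes the IL-22-Fc mean lay beyond the control mean as seen from untreated skin. By distance alone, whichever side of untreated skin the means lay on, IL-22-Fc was farther than control from untreated skin in 10 of the 13 called genes that were higher, in 6 of the 7 that were lower and in 8425 of all 20672 probe sets. Genes chosen for a wide gap between IL-22-Fc and control tend to lie farther from any other group. These counts are therefore description only. In 7 of the 13 higher genes the control mean was itself above untreated skin, and so it was in 11331 of all 20672 probe sets. This count therefore does not set the higher genes apart. Alox8 had a mean of 4.30 in control wounds and was at 3.48 to 4.22 in 4 untreated arrays, while the other untreated array was at 6.57. That array had a 5′ Gapdh level of 11.14, against 12.50 to 12.92 in the other untreated arrays. It enters every untreated mean given here, and its part in them was not tested.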

How the data were processed

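RNA of 42 skin samples was hybridised to Affymetrix Mouse430V2 arrays. The authors normalized the probe set intensity values with RMA, kept for each Entrez gene the probe set of highest variance and deposited the values on a linear scale from 3.85 to 23500 with a median of 50.8. Of the 20672 probe sets, 17928 carry 1 gene symbol, 79 several and 2665 none. Here log2 of the deposited intensity was taken, with no offset and no filter. R 4.3.3, limma 3.58.1 and version 1.17.8 of the package data.table were used. The 24 h fit had 19 arrays, 1 mean per group and 15 residual degrees of freedom. Day 7 was fitted over 18 arrays, and the difference between the times over 37. p was adjusted by Benjamini and Hochberg. Genes and the 39 lists were chosen with earlier results of these data known. Named genes were the called genes, the IL-20 subfamily, genes the study names at day 7, the widest differences between times and, for each list, up to 5 members that passed and the 3 of highest level that did not. Card14, Cnfn, Btc, Arg1, Flg, Wfdc12, Stfa3, Krt17, Gp9, Fpr2, Trem1 and those added without array 5 were chosen after their values were seen. Lists were described by counts and medians, without a set test. The fitting code was tested on simulated data. The number of arrays limits the precision. Using a single probe set per gene can hide other transcripts, and for Krt14 the probe set kept was dim. Promoters were matched by symbol. Alternatives covered the arrays fitted, normalization, filters, thresholds, weights, the 5′ level and single arrays left out.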

Additional observations from a re-analysis of the deposited data

Results flagged for a closer look

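In 9 of 112 groups checked (56 genes with IL-22-Fc and in the control at 24 h), 1 array stood apart from the others of its group, and chance flags about 1 group in 20. IL-22-Fc array 5 was low for Chil1 (10.88, next 11.5) and for Gsdma (7.04, next 7.71). IL-22-Fc array 1 was high for Klk8 (9.62), Lpo (4.54) and Lce3a (9.45, next 6.88). Among control arrays, array 4 was high for Gprin2 (7.82), array 2 low for Il20ra (6.67) and high for Cxcr2 (8.63), and array 1 high for Serpinb3a (5.53).

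The effect of IL-22-Fc differed between 24 h and day 7 in 30 of the genes named here, tested as the difference itself with limma. Some of them were named because they had the widest differences in this same contrast, so the count is in part set by that choice. Over all probe sets, 0.803% were more positive and 0.629% more negative at an adjusted p under 0.05 and at least 1.5-fold. As 24 h minus day 7, it was positive for Dppa5a (1.03), Slurp1 (1.72), Adh6a (2.11), Ces2f (1.37), Lce1m (2.41), Lor (1.39), Mt4 (3.81), Krt2 (3.51), Krt77 (3.51), Ivl (1.94), Dapl1 (2.28) and Pck1 (2.07). It was negative for Alox8 (-2.68), Prss27 (-1.89), Chil1 (-1.81), Nfe2 (-1.21), Il22ra1 (-0.76), Defb1 (-0.84), S100a9 (-1.45), Serpinb3a (-2.72), Cxcr2 (-1.74), Pla2g4e (-1.37), Lcn2 (-1.95) and Saa1 (-3.42). Negative values were also those of Defb3 (-4.27), Lpo (-3.42), Uox (-3.32), Sprr2f (-3.23), Lce3a (-2.84) and Actc1 (-2.82). At 24 h the means of Krt2, 3.85 with IL-22-Fc and 3.91 in the control, lay within the range of the Y chromosome probe sets. A decrease of Krt2 could thus not be read at 24 h, and its day 7 control arrays were uneven (mean 7.09, SD 1.61). The 24 h means of Lpo, 4.26 and 4.12 in the same order, also lay within that range.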

How the results depend on the processing

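Of the 23 genes that passed an adjusted p of 0.05, 7 did so under each of the alternatives run (Alox8, Dppa5a, Chil1, Atl1, Serpina12, Gng4 and Lor), and no named gene changed direction while called. The counts of higher and lower genes were 4 and 3 when only the 9 arrays were fitted, 7 and 4 with an offset of 16 before the log, and 4 and 3 at an adjusted p under 0.01, and 6 were higher at 2-fold. The genes set apart from control, VEGF and PDGF were 6 higher with the offset, 6 higher at 2-fold and 4 higher at an adjusted p under 0.01, and 4 lower with the 5′ level as a covariate and 5 lower with no limit on the fold. With single arrays left out, the counts ranged from 4 to 27 higher and from 3 to 8 lower, and from 4 to 15 and 2 to 4 for those set apart. The most were found without IL-22-Fc array 5 and the fewest (4 higher and 3 lower) without control array 3. Without control array 4 they were 5 and 3, without control array 2 8 and 5, and without IL-22-Fc arrays 1, 2, 3 and 4 the higher genes were 8, 6, 6 and 7 and the lower genes 4, 7, 4 and 5. The genes with a more positive signed difference from control at 24 h than at day 7 were 51, and those with a more negative one 82, when all 42 arrays were fitted, and 103 were more positive with only the 19 IL-22-Fc and control arrays. They ranged from 67 to 285 and from 89 to 167 with single arrays left out, and the more positive ones were 74, 103 and 285 without IL-22-Fc arrays 2, 3 and 5 and 83 and 67 without control arrays 1 and 2. The causes were not tested. No paired analysis was possible because the labels give no replicate numbers.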
